A study of Mus musculus with 38 samples.

Results

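The interferon regulators described here are 9 genes: Irf1, Irf2, Irf3, Irf5, Irf7, Irf8 and Irf9, which encode interferon regulatory factors, Stat2, which encodes a signal transducer, and Ifnar1, which encodes a chain of the type I interferon receptor. They were chosen by name, and all 9 were found by symbol among the 55487 Ensembl genes of each of the 3 count tables. Type I interferons bind the receptor chains IFNAR1 and IFNAR2, whose kinases phosphorylate STAT2, and STAT2 acts with IRF9 in a complex that switches on interferon-stimulated genes through a DNA element called the ISRE. IRF3 and IRF7 switch on the interferon genes themselves after pathogen sensing, and Irf7 is itself an interferon-stimulated gene. IRF5 and IRF8 are characteristic of myeloid cells, IRF8 being needed for microglial and macrophage identity, whereas IRF1 is induced by interferon gamma and inflammatory signals and IRF2 competes with it for the same DNA element.

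The series measured poly(A) RNA by stranded sequencing in 38 libraries of mouse cells, in 18 groups, of which 16 held 2 libraries and 2 held 3. BV2 is an immortalised microglial line, GL261 is a glioma line that here carried the green fluorescent protein plasmid pEGFP-N1, and BMDM are wild-type primary macrophages grown from bone marrow, whose donor animals' age is not given in the sources used here. Oxygen was held for 16 h at 21%, called normoxia here, or at less than 0.1%, called hypoxia. In the co-culture experiment BV2 and GL261 were grown alone or directly together (2 GL261 cells per BV2 cell), giving 8 groups of 2 libraries, and BMDM were grown alone (2 libraries at each oxygen level) or with GL261 at 1 to 1 (3 libraries at each oxygen level). In the panobinostat experiment BV2 and BMDM without glioma cells received the solvent DMSO in normoxia or hypoxia, or 10 nM panobinostat, a histone deacetylase inhibitor, in hypoxia, with 2 libraries in each of these 6 groups. The labels call the replicates biological for the first 16 libraries (BV2 and GL261 in the co-culture experiment) and do not say what the other 22 were, so p-values for those measure only the spread between samples, which may be technical. The labels do not say how the cell types of a co-culture were separated.

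Library totals ran from 9634700 to 27238933 counts, so that 3 counts, taken as the limit of detection, correspond to between 0.110 and 0.311 CPM (counts scaled to the library total), counting error only. Levels below are CPM scaled within each cell type and experiment, and effects are log2 fold changes with their standard error (SE). A gene was called where its Benjamini-Hochberg adjusted p, over all genes tested in that comparison by edgeR's quasi-likelihood test, was under 0.05. Of 12 myeloid markers, 10 to 12 reached 1 CPM in each BV2 library and 11 or 12 in each BMDM library, whereas 1 or 2 did in GL261 grown alone. Of 10 glioma and neural markers, 9 reached 1 CPM in every GL261 library. Genes high in the partner line and absent from the cell itself put the RNA carried over from the partner at a mean of 0.758% (normoxia) and 2.20% (hypoxia) of co-cultured BV2 libraries, 0.771% and 0.241% of co-cultured GL261 libraries, and 2.40% and 3.60% of co-cultured BMDM libraries. In these bulk samples fewer cells of a type and less RNA per cell cannot be told apart.

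On GRCm38 with GENCODE vM21 models, Irf1 lies at chr11:53770014-53778374 on the plus strand, Irf2 at chr8:46739732-46847458 (plus), Irf3 at chr7:44997648-45002848 (plus), Irf5 at chr6:29526625-29541871 (plus), Irf7 at chr7:141262706-141266481 (minus), Irf8 at chr8:120736358-120756694 (plus), Irf9 at chr14:55603571-55610030 (plus), Stat2 at chr10:128270559-128292849 (plus) and Ifnar1 at chr16:91485238-91507441 (plus). All 9 matched RefSeq promoter entries (GRCm38.p6), and 4 motifs were searched on both strands in the 250 bases before the start site. The ISRE, written GAAANNGAAA, is held by 2.98% of all 32851 RefSeq promoter windows of this length, the STAT element GAS (TTCNNNGAA) by 7.02%, the core ACGTG of the hypoxia response element by 16.6%, and the NF-kappaB element kappaB by 7.25%. The windows of 5 members on which the comparisons below turn, from genes called in several of them, are printed 5′ to 3′ in the direction of transcription, leaving out bases inside annotated exons, with every complete motif match in capitals.
Irf1, chr11:53769764-53770013, strand +: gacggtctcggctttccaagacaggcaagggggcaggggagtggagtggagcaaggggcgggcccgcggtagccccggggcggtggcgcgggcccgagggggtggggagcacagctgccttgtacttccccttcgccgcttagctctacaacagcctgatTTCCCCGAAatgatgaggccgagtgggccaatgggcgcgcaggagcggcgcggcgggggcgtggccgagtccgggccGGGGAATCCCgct
Irf2, chr8:46739516-46739731, strand +: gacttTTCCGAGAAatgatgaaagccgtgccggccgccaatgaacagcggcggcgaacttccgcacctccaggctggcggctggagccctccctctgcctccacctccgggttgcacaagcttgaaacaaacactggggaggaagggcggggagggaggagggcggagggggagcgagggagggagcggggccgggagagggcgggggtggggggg
Irf7, chr7:141266482-141266674, strand -: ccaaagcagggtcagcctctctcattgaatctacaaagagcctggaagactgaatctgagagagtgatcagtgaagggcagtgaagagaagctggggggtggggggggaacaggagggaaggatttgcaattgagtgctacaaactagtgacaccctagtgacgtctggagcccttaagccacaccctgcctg
Irf8, chr8:120736108-120736357, strand +: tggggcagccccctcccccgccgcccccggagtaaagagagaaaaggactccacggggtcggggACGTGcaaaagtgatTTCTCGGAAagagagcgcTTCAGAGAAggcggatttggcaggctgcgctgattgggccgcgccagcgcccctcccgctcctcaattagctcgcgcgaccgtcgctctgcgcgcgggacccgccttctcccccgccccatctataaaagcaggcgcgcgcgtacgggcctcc
Stat2, chr10:128270248-128270497, strand +: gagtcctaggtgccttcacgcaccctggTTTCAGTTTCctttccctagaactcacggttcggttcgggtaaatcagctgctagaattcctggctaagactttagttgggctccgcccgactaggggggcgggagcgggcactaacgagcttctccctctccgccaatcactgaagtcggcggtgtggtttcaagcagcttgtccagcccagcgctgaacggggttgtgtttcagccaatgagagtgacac
The capitals mark a GAS match and a kappaB match in Irf1, a GAS match in Irf2, an ACGTG and then 2 GAS matches in Irf8, and in Stat2 an ISRE match that reads GAAACTGAAA on the opposite strand. Irf1 and Irf8 each also had a further RefSeq promoter entry that is not printed. Outside exons these lie at chr11:53770279-53770472 and chr8:120738389-120738638, and none of the 4 motifs was found in their windows. The Irf2 window also held an ISRE match, GAAAATGAAA, and a kappaB match that lie wholly or partly within annotated exons and are not shown. None of the 4 motifs was found in the Irf7 window, nor in those of Irf3, Irf5, Irf9 and Ifnar1, which says only that these letters are not in these bases. A match describes the letters and is neither a binding site nor a cause of a change.

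The 3 cell types kept different sets of these genes in monoculture at 21% oxygen. Irf8 and Irf5, the myeloid factors, were high in BV2 and BMDM and near the detection limit in GL261, while the interferon-responsive Irf7, Irf9 and Stat2 were lower in BV2 than in GL261. Per kilobase of exon, Irf5 led in BV2 with a mean of 28.2 CPM per kb, followed by Irf8 with 16.2, and Irf7 was lowest with 1.12. In BMDM Irf5 also led, with 126 CPM per kb, and Ifnar1 followed with 34.3. In GL261 Irf3 (23.8 CPM per kb) and Irf1 (21.2) were highest and Irf8 (0.011) was lowest. The annotated exons of Irf7 merge into a single block of 3776 bases that spans the gene, which makes its value per kb a low one.

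**Figure D1:**
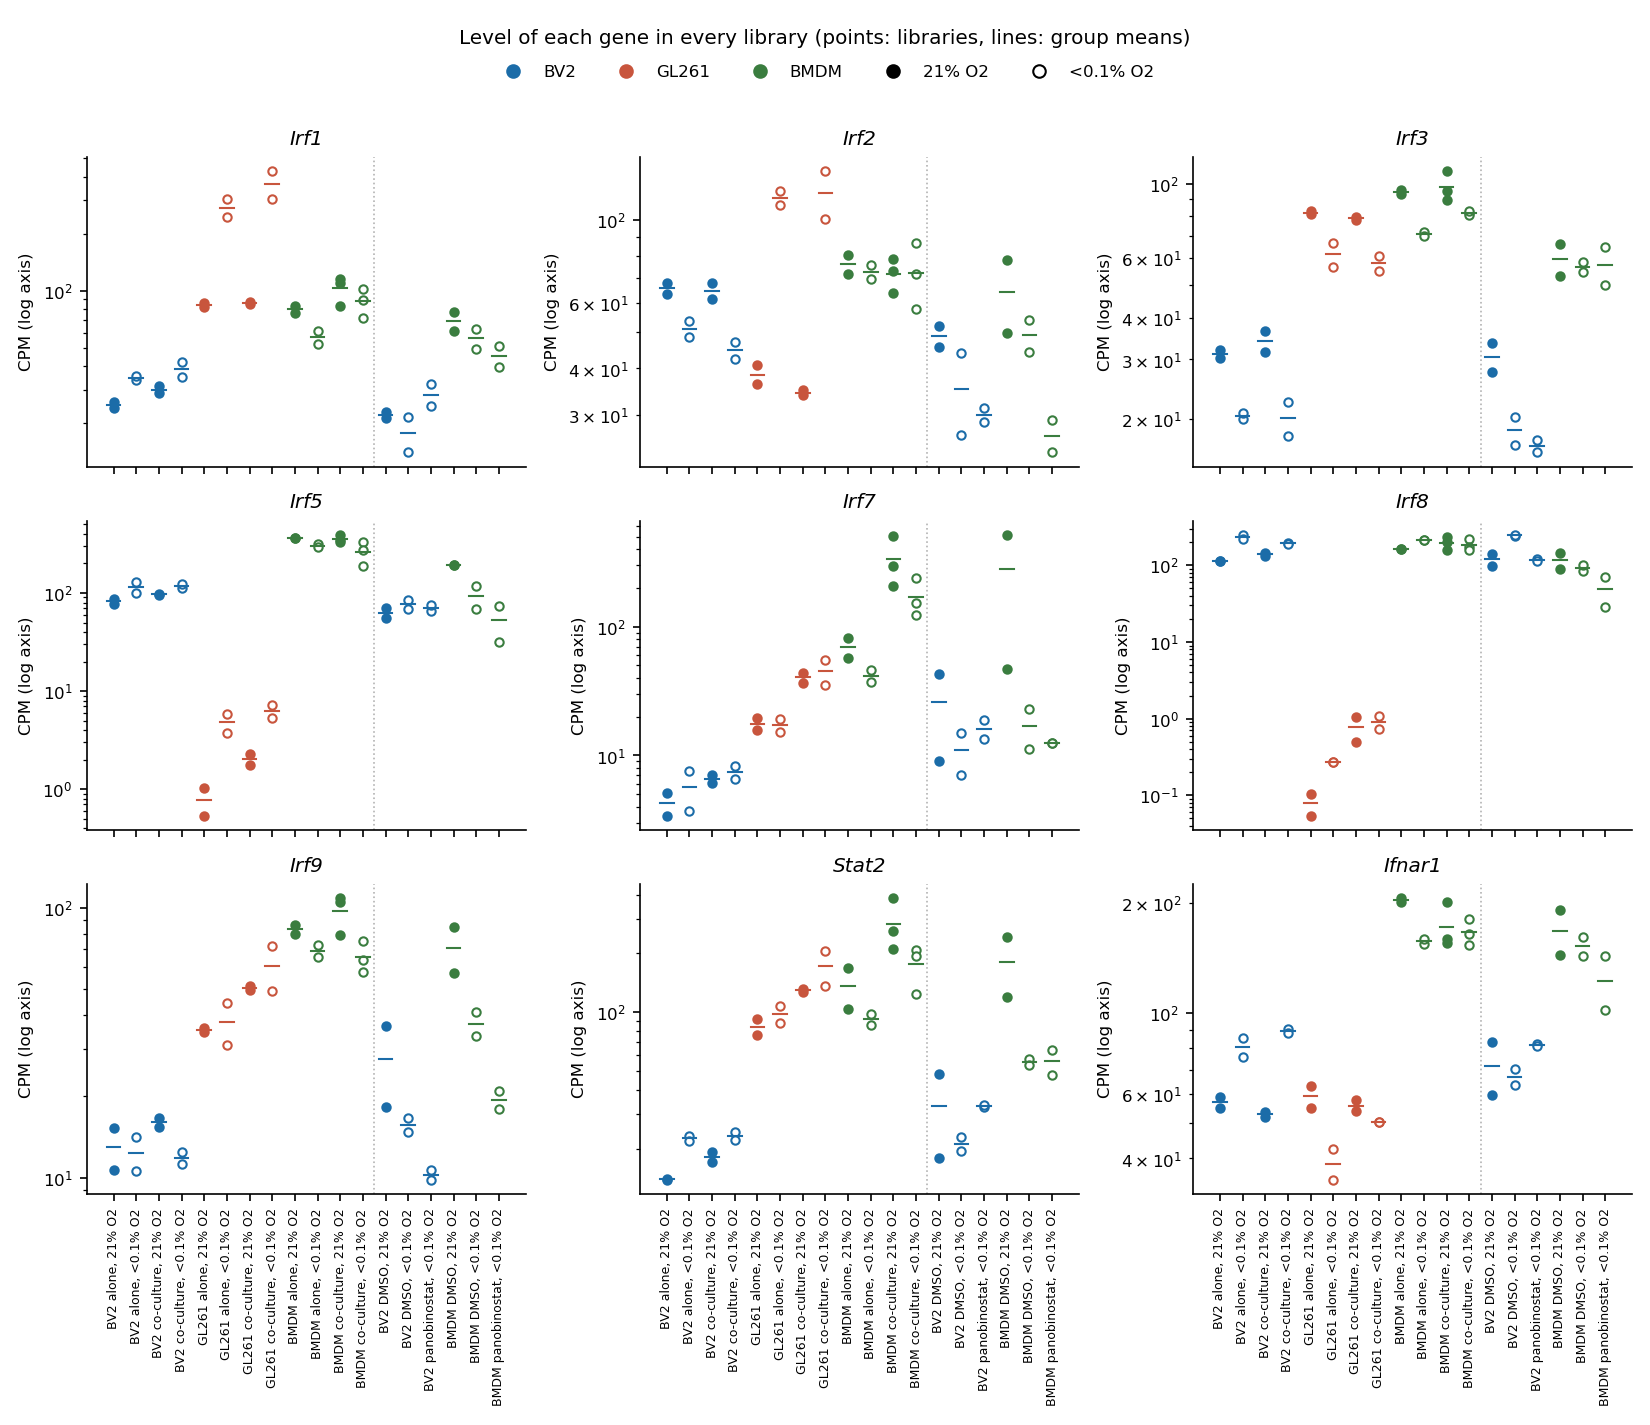
Level of each gene in all 38 libraries, in CPM on a log axis, by group; each point is a library, the short line is the group mean, filled points are 21% oxygen and open points below 0.1% oxygen, and the dotted line separates the co-culture experiment (left) from the panobinostat experiment (right). Irf8 reaches at most 1.07 CPM in GL261 (red) and is at least 28.7 CPM in the myeloid cells. Irf5 reaches at most 7.26 CPM in GL261 and is at least 31.9 CPM in the myeloid cells. The normoxic DMSO libraries of BMDM differ from each other in Irf7 (516 and 47.1 CPM).

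In BV2 against GL261 at 21% oxygen, 8 of the 9 members were called, 3 higher and 5 lower, against 73.2% of the genes tested. Irf5 stood at 86.8 and 77.3 CPM in BV2 and at 1.02 and 0.534 CPM in GL261 (log2 difference 6.82, SE 0.26, adjusted p = 3.86e-14), and Irf2 was higher in BV2 by 0.89 (SE 0.14). Irf8 had 2 and 1 counts in the GL261 libraries against 2698 and 2547 in BV2. Irf1, Irf3, Irf7, Irf9 and Stat2 were lower in BV2, Stat2 most, at 13.9 CPM in both BV2 libraries against 91.7 and 76.0 CPM in GL261 (log2 difference -2.47, SE 0.18, adjusted p = 3.17e-10). Ifnar1 was the one member not called, at 55.1 and 59.1 CPM in BV2 and 55.0 and 63.2 CPM in GL261.

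In BV2 against BMDM, both with DMSO at 21% oxygen, 7 of 9 members were lower in BV2 and none higher, against 44.2% of genes called in either direction. The differences ran from -1.15 (Irf3) to -3.60 (Irf7), and those of Irf2 and Irf8 were not called (-0.57, adjusted p = 0.136, and -0.17, adjusted p = 0.743). The Irf7 call was lost without the first BMDM library or without the second BV2 library (adjusted p up to 0.336). These BMDM libraries stood apart from the BMDM of the co-culture experiment. The 4 fibroblast markers summed to between 1772 and 14199 CPM in them, almost all of it Col1a1 and Pdgfrb, against 44.3 to 407 CPM in the co-culture experiment. Lum was at 0 counts in 3 of those 6 libraries and Dcn did not exceed 5.64 CPM. The part of these transcripts in the comparison was not tested.

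Low oxygen moved the factors of the IRF family in different directions by cell type, and Irf3 was the member whose estimate was negative in all 8 comparisons of hypoxia with normoxia. In BV2 grown alone 7 of 9 members were called, 5 higher and 2 lower, against 61.9% of genes tested. In BV2 from co-culture 6 were called, 4 higher and 2 lower, against 67.3%. In BV2 with DMSO 2 were called, 1 higher and 1 lower, against 37.5%. In GL261 the count was 5 (3 higher, 2 lower) alone, against 44.6%, and 4 (3 higher, 1 lower) in co-culture, against 52.4%. In BMDM alone edgeR called none of the 9, with 3 at an unadjusted p under 0.05 and 1 called by DESeq2 (Irf3), against 23.9% of genes called. With only its 2 groups fitted edgeR called 7, Irf8 higher and Irf1, Irf3, Irf5, Irf7, Stat2 and Ifnar1 lower. That fit called 6289 of 13237 genes. In BMDM from co-culture 2 were lower and none higher, against 34.8%. In BMDM with DMSO edgeR called none, with 3 at an unadjusted p under 0.05 and 2 called by DESeq2 (Irf7 and Stat2), against 0.483%. With 9 genes, the shares called in BV2 and GL261 of the co-culture experiment lay near those of all genes. The median effect over the members was 0.48 in BV2 alone, where the median of all genes was 0.00, and -0.38 in BMDM alone, where it was 0.03. In BV2 with DMSO the member median was -0.47, where that of all genes was -0.03, so its sign differed between the BV2 experiments. The member median was 0.28 in co-cultured BV2, -0.26 in co-cultured BMDM and -0.38 in BMDM with DMSO. In GL261 it was 0.22 alone and 0.27 in co-culture.

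**Figure D2:**
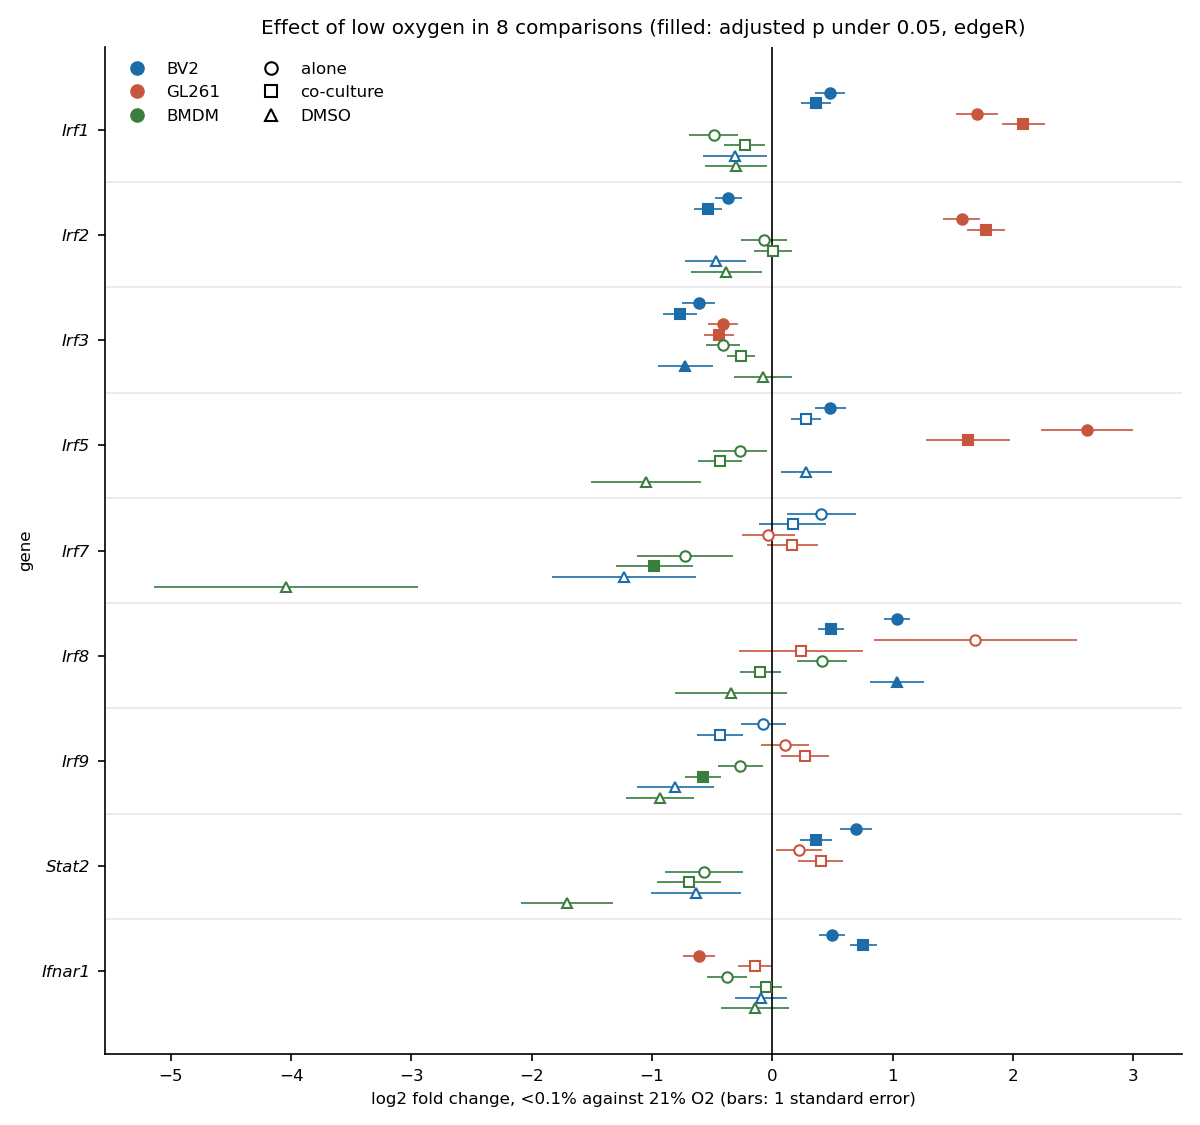
Log2 fold change of hypoxia against normoxia (x axis) for each gene (y axis) in 8 comparisons; points are edgeR estimates, bars 1 standard error, colours the cell type, shapes the culture, and filled points are those with an adjusted p under 0.05. Irf1, Irf2 and Irf5 in GL261 (red, filled) lie between 1.57 and 2.62, to the right of the other cell types, and the Irf3 estimates all lie left of 0.

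Irf1 rose most in the glioma line. It stood at 82.5 and 86.1 CPM in normoxic GL261 and at 304 and 245 CPM in hypoxic GL261, and the groups did not overlap (log2 fold change 1.70, SE 0.17, adjusted p = 3.03e-05). In GL261 from co-culture it went from 87.1 and 85.2 to 428 and 304 CPM (2.09, SE 0.18, adjusted p = 5.03e-06). In BV2 alone the rise was smaller, from 25.8 and 24.1 to 34.0 and 35.5 CPM (0.48, SE 0.13, adjusted p = 0.00356). In BV2 from co-culture Irf1 went from 31.3 and 28.7 to 35.1 and 41.9 CPM (0.36, SE 0.13, adjusted p = 0.0183), a call lost without the second library of either group (adjusted p up to 0.324), without a filter on low counts (adjusted p = 0.132) and with only the 2 groups fitted (adjusted p = 0.0506). There, the carried share of GL261 RNA amounted to 0.654 CPM of Irf1 in normoxia and 7.70 CPM in hypoxia, from unscaled levels of 31.4 and 37.3 CPM in those BV2 libraries. The part of carried RNA in the co-culture call was not tested, and in BV2 alone no GL261 was present. In BV2 with DMSO it was not called (-0.31, adjusted p = 0.380). In BMDM Irf1 was not called in any of the 3 comparisons in the reported fit, at -0.49 alone, -0.23 in co-culture and -0.30 with DMSO. In BMDM alone edgeR called it with only the 2 groups fitted (-0.51, adjusted p = 0.00678) and without a filter (-0.57, adjusted p = 0.0365). The hypoxia effect differed between BV2 and GL261 grown alone by -1.13 (SE 0.22, adjusted p = 0.000436).

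Irf2, the competitor of Irf1, rose in GL261 and fell in BV2. In GL261 alone it went from 40.8 and 36.3 to 120 and 110 CPM (1.57, SE 0.15, adjusted p = 2.16e-05), and in co-culture from 35.0 and 34.0 to 135 and 101 CPM (1.78, SE 0.16). Both hypoxic groups lay entirely above their normoxic groups. In BV2 alone it fell from 67.8 and 63.4 to 53.5 and 48.5 CPM (-0.36, SE 0.12, adjusted p = 0.0120), a call lost without the first normoxic or the second hypoxic library (adjusted p up to 0.125). In BV2 from co-culture it fell by 0.53 on the log2 scale (SE 0.12, adjusted p = 0.000788), and with DMSO the estimate was -0.47 (adjusted p = 0.171), called only without the second hypoxic library (adjusted p = 0.0290). The difference between the 2 lines in monoculture was -1.84 (SE 0.19, adjusted p = 8.79e-07). In BMDM the estimates were -0.07, 0.00 and -0.38, none called.

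Irf3, the factor that starts interferon transcription after sensing of nucleic acids, fell in BV2 and GL261 in every comparison made. In BV2 alone it went from 32.0 and 30.2 to 19.9 and 20.8 CPM (-0.61, SE 0.14, adjusted p = 0.00108). In BV2 from co-culture it went from 31.5 and 36.6 to 17.7 and 22.5 CPM (-0.77, SE 0.14, adjusted p = 0.000152), and with DMSO from 27.6 and 33.5 to 16.7 and 20.2 CPM (-0.73, SE 0.23, adjusted p = 0.0313). The groups did not overlap in any of these. The DMSO call was lost without the second normoxic or the first hypoxic library (adjusted p up to 0.180) and with only the 2 groups fitted (adjusted p = 0.0701). In GL261 the decreases were smaller, from 82.9 and 81.1 to 56.6 and 66.8 CPM alone (-0.41, SE 0.13, adjusted p = 0.0209) and from 78.1 and 79.8 to 54.9 and 61.1 CPM in co-culture (-0.44, SE 0.13, adjusted p = 0.0126). Each GL261 call was lost without either normoxic library or the first hypoxic one (adjusted p up to 0.191 and 0.121), and the call in GL261 alone also without a filter (adjusted p = 0.0895) and with only the 2 groups fitted (adjusted p = 0.0600). The effect in BV2 differed from that in GL261 by -0.10 (SE 0.19, adjusted p = 0.767). BMDM alone had 95.6 and 93.3 CPM in normoxia and 71.9 and 69.9 CPM in hypoxia, with no overlap, but the difference (-0.41, SE 0.14) missed the threshold in the reported fit (adjusted p = 0.0554). DESeq2 called this difference (-0.44, adjusted p = 0.0208). So did edgeR with the size factors of DESeq2 (adjusted p = 0.0415) and at a mean of at least 5 CPM (adjusted p = 0.0365). With only the 2 groups fitted edgeR called it too (adjusted p = 0.00597). In BMDM from co-culture the difference was -0.26 (adjusted p = 0.105) and with DMSO -0.08 (adjusted p = 0.854).

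Irf5, a factor of inflammatory gene expression in myeloid cells, rose in GL261 from a very low base. GL261 alone had 20 and 10 counts in normoxia (1.02 and 0.534 CPM) and 153 and 70 counts in hypoxia (5.84 and 3.75 CPM), a log2 fold change of 2.62 (SE 0.38, adjusted p = 0.000287). In co-culture the levels were 2.27 and 1.78 CPM in normoxia and 7.26 and 5.33 CPM in hypoxia (1.63, SE 0.35, adjusted p = 0.00220). The hypoxic groups lay above the normoxic ones in both, yet stayed far under every BV2 library (lowest 56.2 CPM). The opposite-strand gene Tnpo3 shares 14.1% of the Irf5 exon bases, and whether counting used the strand is not given in the sources used here. Tnpo3 itself stood at 153 and 144 CPM in normoxic and 197 and 167 CPM in hypoxic GL261 grown alone, and its part in the Irf5 counts was not tested. In BV2 alone Irf5 went from 86.8 and 77.3 to 129 and 100 CPM (0.48, SE 0.13, adjusted p = 0.00345), a call lost without the first hypoxic library (adjusted p = 0.0608). In co-culture (0.28, adjusted p = 0.0626) and with DMSO (0.28, adjusted p = 0.319) it was not called. The effect in BV2 alone differed from that in GL261 alone by -2.05 (SE 0.36, adjusted p = 0.000191). In BMDM the 3 estimates (alone, co-culture and DMSO) were -0.27, -0.44 and -1.05 with none called, the second called without the first hypoxic library (adjusted p = 0.0174). Without a filter edgeR called the second (-0.47, adjusted p = 0.0335) and the third (-1.08, adjusted p = 0.0210). The first was called with only the 2 groups fitted (-0.29, adjusted p = 0.0358).

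Irf8, the lineage factor of microglia and macrophages, about doubled in hypoxic BV2. In BV2 alone it stood at 115 and 113 CPM in normoxia and at 248 and 221 CPM in hypoxia (1.04, SE 0.11, adjusted p = 4.42e-07). With DMSO it went from 97.9 and 142 to 242 and 251 CPM (1.04, SE 0.22, adjusted p = 0.00584). In co-culture it went from 134 and 144 to 197 and 193 CPM, a smaller estimate (0.49, SE 0.11, adjusted p = 0.000827). No normoxic library reached a hypoxic one in any of the 3. The difference between the effects in co-culture and alone was -0.55 (SE 0.15), which edgeR did not call (adjusted p = 0.0651) and DESeq2 did (-0.56, adjusted p = 0.0140), and edgeR called it without the second hypoxic library of BV2 alone or the first of co-culture (adjusted p down to 0.0253). The 12 myeloid markers summed to between 3472 and 3480 CPM in normoxic and between 4730 and 4816 CPM in hypoxic BV2 grown alone, so they moved the same way, and their part in the result was not tested. In GL261 alone Irf8 had 2 and 1 counts in normoxia and 7 and 5 in hypoxia. In BMDM alone Irf8 stood at 162 and 163 CPM in normoxia and 215 and 218 CPM in hypoxia, without overlap but not called (0.41, SE 0.21, adjusted p = 0.177). It was called with only the 2 groups fitted (0.39, adjusted p = 0.00784). In BMDM from co-culture (-0.10) and with DMSO (-0.35) the groups overlapped.

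With panobinostat, Irf8 in hypoxic BV2 lay in the range of normoxic cells. It stood at 242 and 251 CPM with DMSO and at 121 and 114 CPM with panobinostat, inside the 97.9 to 142 CPM of the normoxic DMSO libraries (log2 fold change -1.07 against hypoxic DMSO, SE 0.23, adjusted p = 0.0150). It was the 1 member of 9 called, against 14.6% of genes tested, and the call was lost without either panobinostat library (adjusted p up to 0.123). The 12 myeloid markers summed to 3996 to 5015 CPM with DMSO and 2881 to 3442 CPM with panobinostat in hypoxic BV2, and their part was not tested. The other estimates in BV2 ran from -0.61 (Irf9) to 0.67 (Irf1, adjusted p = 0.117). In BMDM none of the 9 was called by edgeR or by DESeq2, with 2 at an unadjusted p under 0.05 (Irf2, -0.90, and Irf9, -0.93). There edgeR called no gene at all, which is 0% of 14914, with 3868 at an unadjusted p under 0.05 and 2016 called by DESeq2. Irf8 in those BMDM stood at 85.4 and 101 CPM with DMSO and 28.7 and 69.7 CPM with panobinostat (-0.92, SE 0.47, adjusted p = 0.269). In the same libraries the myeloid markers summed to 3316 and 5280 CPM with DMSO and to 726 and 2069 CPM with panobinostat, with all 12 still counted, and their part was not tested. The panobinostat effect did not pass the test of a difference between BV2 and BMDM for any member in edgeR or DESeq2, with 1 (Irf1) at an unadjusted p under 0.05, against 0.0251% of genes called, and for Irf8 the difference was -0.15 (SE 0.53).

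**Figure D3:**
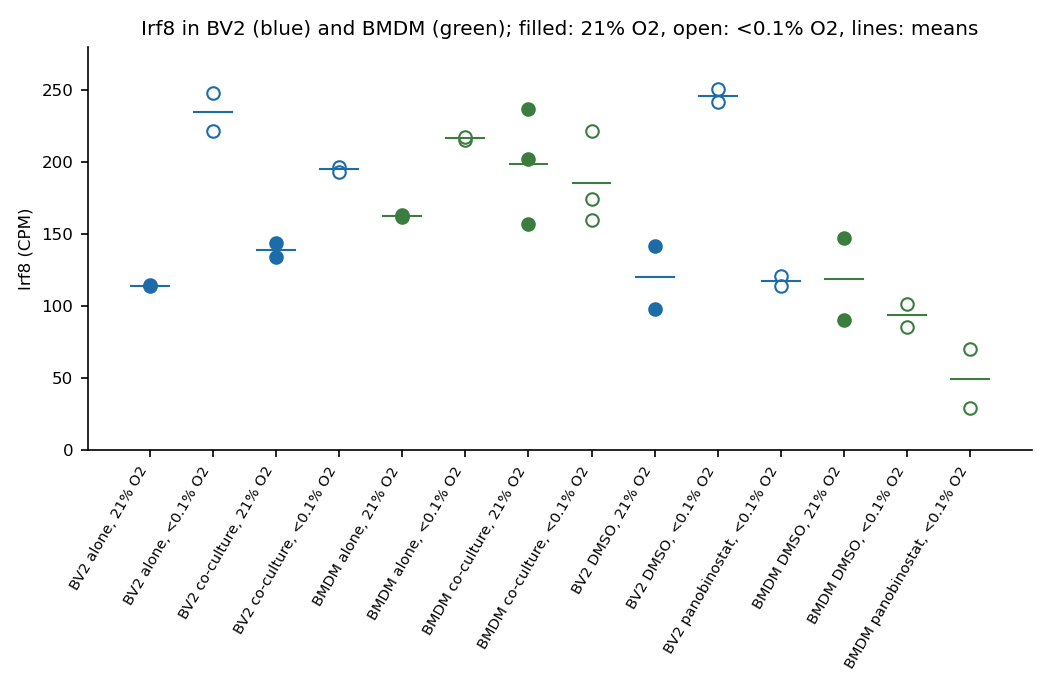
Irf8 in CPM (linear axis from 0) in the BV2 (blue) and BMDM (green) libraries of both experiments; points are libraries, lines group means, filled 21% oxygen and open below 0.1% oxygen. Hypoxic BV2 libraries without panobinostat sit between 193 and 251 CPM, above all normoxic and panobinostat BV2 libraries.

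Stat2, Irf9 and Ifnar1, the signalling arm from the receptor to the ISRE, did not move together under low oxygen. In BV2 alone Stat2 rose from 13.9 CPM in both libraries to 23.2 and 21.9 CPM (0.70, SE 0.13, adjusted p = 0.000226). In co-culture it went from 19.1 and 17.0 to 24.3 and 22.1 CPM (0.37, SE 0.13, adjusted p = 0.0223), a call lost in DESeq2 (adjusted p = 0.0583), without a filter (adjusted p = 0.168), with only the 2 groups fitted (adjusted p = 0.0613) and without the second normoxic or the first hypoxic library (adjusted p up to 0.243). Carried GL261 RNA came there to 0.984 CPM of Stat2 in normoxia and 3.60 CPM in hypoxia, and its part was not tested. With DMSO the direction was not the same: 47.9 and 17.9 CPM in normoxia and 19.5 and 22.8 CPM in hypoxia, overlapping and not called (-0.64, adjusted p = 0.208). In GL261 Stat2 was not called (0.22 alone, 0.40 in co-culture), the second becoming a call without the second hypoxic library (adjusted p = 0.00728). The effect alone differed between BV2 and GL261 by 0.58 (adjusted p = 0.0661), called without the first hypoxic GL261 library (adjusted p = 0.0446). In BMDM all 3 estimates were negative and none was called by edgeR in the reported fit. They were -0.57 alone, -0.69 in co-culture (adjusted p = 0.0631) and -1.70 with DMSO (adjusted p = 0.0843). DESeq2 called the co-culture effect (-0.68, adjusted p = 0.0292), as did edgeR without a filter (-0.73, adjusted p = 0.000201). The DMSO effect was called by DESeq2 (-1.72, adjusted p = 0.00265) and by edgeR without a filter (-1.73, adjusted p = 2.78e-05). With the replicate number in the fit edgeR called it as well (-1.67, adjusted p = 0.0389). In BMDM alone edgeR called Stat2 without a filter (-0.65, adjusted p = 0.0166) and with only the 2 groups fitted (-0.59, adjusted p = 0.0427). The co-culture estimate also passed in edgeR without the third normoxic or the first hypoxic library (adjusted p down to 0.0358).

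Irf9, the DNA-binding partner of STAT2, fell in hypoxic BMDM from co-culture. It stood at 105, 108 and 79.4 CPM in normoxia and at 74.9, 57.8 and 63.7 CPM in hypoxia, without overlap (-0.58, SE 0.15, adjusted p = 0.0128). In BMDM alone the estimate was -0.26 and with DMSO -0.94, neither called. In BV2 from co-culture it was -0.43 (SE 0.19, adjusted p = 0.0524), called without the first hypoxic library (adjusted p = 0.0339), and in BV2 alone -0.08. In GL261 it was 0.10 alone and 0.27 in co-culture, the latter called without the second hypoxic library (adjusted p = 0.0428). In co-cultured BV2 edgeR also called Irf9 without a filter (-0.52, adjusted p = 0.00618) and with only the 2 groups fitted (-0.48, adjusted p = 0.0157). BV2 with DMSO had 36.6 and 18.3 CPM in normoxia and 16.7 and 14.7 CPM in hypoxia, not called in the reported fit. There edgeR called Irf9 without a filter (-0.78, adjusted p = 0.0295) and with the replicate number in the fit (-0.76, adjusted p = 0.0110). Irf9 shares 2.28% of its exon bases with Rnf31 on the same strand.

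Ifnar1 rose in BV2 and fell in GL261. In BV2 alone it went from 55.1 and 59.1 to 75.8 and 85.4 CPM (0.50, SE 0.11, adjusted p = 0.000939), and in co-culture from 51.9 and 53.7 to 90.3 and 88.1 CPM (0.76, SE 0.11, adjusted p = 1.88e-05). With DMSO the BV2 groups overlapped, at 83.3 and 59.8 CPM in normoxia and 70.4 and 63.6 CPM in hypoxia (-0.09, adjusted p = 0.756). In GL261 alone it fell from 55.0 and 63.2 to 42.4 and 35.0 CPM (-0.61, SE 0.14, adjusted p = 0.00385), and in co-culture the change was not called (-0.15, adjusted p = 0.386). The effect differed between BV2 and GL261 grown alone by 1.21 (SE 0.17, adjusted p = 2.57e-05). This was one of 4 members whose hypoxia effect differed between these lines, 1 higher and 3 lower in BV2, against 37.4% of the 16882 genes tested. The median difference over all genes was 0.15 and over the members -0.10. In BMDM Ifnar1 was not called (-0.38, -0.05 and -0.14). With only the 2 groups fitted it was called in BMDM alone (-0.40, adjusted p = 0.00759).

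Irf7, the amplifier of the interferon response, was the member that rose in co-culture. In GL261 it was the 1 member of 9 called at each oxygen level, against 0.514% of genes in normoxia and 1.39% in hypoxia. GL261 had 19.5 and 15.8 CPM alone and 44.0 and 36.7 CPM with BV2 in normoxia (1.19, SE 0.22, adjusted p = 0.0395), and 19.2 and 15.3 CPM alone and 55.1 and 35.4 CPM with BV2 in hypoxia (1.39, SE 0.22, adjusted p = 0.0122). All co-culture libraries lay above all monoculture libraries. The normoxic call was lost without any 1 of its 4 libraries (adjusted p from 0.125 to 0.419), and the hypoxic call without the second monoculture or the first co-culture library (adjusted p up to 0.0617). The normoxic call also ended at a mean of at least 5 CPM (adjusted p = 0.0899) and without genes high in the partner (adjusted p = 0.0742), and the hypoxic call with only its 2 groups fitted (adjusted p = 0.116). The BV2 RNA carried into these libraries amounted in normoxia to 0.0329 CPM of Irf7 at its level in BV2 alone and 0.0533 CPM at its level in co-cultured BV2, against an unscaled rise of 22.1 CPM.

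BMDM showed the larger rise of Irf7 with GL261. In normoxia it stood at 56.9 and 81.3 CPM alone and at 296, 510 and 209 CPM in co-culture (2.29, SE 0.39, adjusted p = 0.0178), and in hypoxia at 37.5 and 46.0 CPM alone and 238, 124 and 152 CPM in co-culture (2.04, SE 0.39, adjusted p = 0.0153). No monoculture library reached a co-culture library. It was again the 1 member called, against 1.64% of genes in normoxia and 7.11% in hypoxia. Each call was lost without either of the 2 monoculture libraries (adjusted p up to 0.241 and 0.137), the normoxic one also without genes high in the partner (adjusted p = 0.0679). Carried GL261 RNA amounted to 0.438 CPM of Irf7 in normoxia against an unscaled rise of 280 CPM. The 6 neutrophil markers summed to 18.7 CPM in the co-cultured normoxic library with the most Irf7 (510 CPM) and to under 1 CPM in the other BMDM libraries of that experiment, and Ly6g, S100a9 and Mpo were at 0 in it. Without that library the normoxic estimate was 1.87 and remained a call. Within co-culture, hypoxic BMDM had less Irf7 than normoxic BMDM (-0.98, SE 0.32, adjusted p = 0.0348), with overlapping groups but a lower hypoxic level in 3 of 3 same-numbered pairs. That call was lost without the second normoxic, the second hypoxic or the third hypoxic library (adjusted p up to 0.139) and with only the 2 groups fitted (adjusted p = 0.0635). In BMDM alone the hypoxia estimate was -0.73 (adjusted p = 0.211). There edgeR called Irf7 with only the 2 groups fitted (-0.75, adjusted p = 0.00892) and without a filter (-0.81, adjusted p = 0.00162). In GL261 hypoxia left Irf7 uncalled, at -0.03 alone and 0.17 in co-culture. In BV2 alone it stood at 5.10 and 3.39 CPM in normoxia and 7.61 and 3.73 CPM in hypoxia, overlapping (0.41, adjusted p = 0.236), and was called without the second hypoxic library (adjusted p = 0.0123).

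In BV2 edgeR called none of the 9 members between co-culture and monoculture in the reported fit, nor did DESeq2. In normoxia 3 members were at an unadjusted p under 0.05 (Irf7, Irf8 and Stat2) against 14.9% of genes called, and in hypoxia 1 (Irf8) against 15.7%. With only the 2 groups fitted edgeR called Irf5, Irf7, Irf8 and Stat2 as higher in normoxia (adjusted p from 0.0203 to 0.0494). At a mean of at least 5 CPM it called Irf8 and Stat2 there (adjusted p = 0.0351 and 0.0391). Without a filter on low counts it called Irf7 there (adjusted p = 0.0299). Irf7 in BV2 stood at 5.10 and 3.39 CPM alone and 7.05 and 6.13 CPM in co-culture in normoxia (0.63, SE 0.29, adjusted p = 0.153). Irf8 in hypoxic BV2 was not called as lower in co-culture in the full comparison (-0.27). Without a filter on low counts edgeR called it (-0.36, adjusted p = 0.0349), as it did without the second hypoxic monoculture library. Stat2 and Irf9 had higher values in co-cultured GL261 that edgeR did not call in the reported fit. Without a filter on low counts edgeR called Stat2 in normoxia (adjusted p = 0.0133) and in hypoxia (adjusted p = 0.000126). That fit also called Irf9 in hypoxia (adjusted p = 0.00499). The same calls were made with the replicate number in the fit. Stat2 had 91.7 and 76.0 CPM alone and 132 and 127 CPM in co-culture in normoxia (0.63, adjusted p = 0.285), and 108 and 87.5 CPM against 206 and 136 CPM in hypoxia (0.81, adjusted p = 0.0638). DESeq2 called Stat2 and Irf9 in hypoxic GL261 (adjusted p = 0.00225 and 0.0402). In edgeR 1 left-out library each made them calls, the second co-culture library for Stat2 (adjusted p = 0.0135) and the first monoculture library for Irf9 (adjusted p = 0.0397). In BMDM Stat2 was higher in co-culture by 1.06 in normoxia (adjusted p = 0.132) and 0.93 in hypoxia (adjusted p = 0.0905), and DESeq2 called both (adjusted p = 0.0113 and 0.0150). Without the second hypoxic co-culture library edgeR called Stat2 as well (adjusted p = 0.0467). Irf1 in hypoxic BMDM stood at 52.6 and 61.1 CPM alone and 71.5, 89.9 and 102 CPM in co-culture (0.63, adjusted p = 0.0741), called by DESeq2 (adjusted p = 0.0251) and by edgeR without the first co-culture library (adjusted p = 0.0218). At the monoculture level of GL261, carried RNA amounted to 9.84 CPM of Irf1 there at the mean share and to 16.3 CPM at the highest. The carried share was 1.66%, 3.19% and 5.94% in these co-culture libraries, in the order of the Irf1 levels given. The library left out for the edgeR call thus had the lowest share. The part of carried RNA in these calls was not tested.

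Whether co-culture altered the response to low oxygen was tested as an interaction. In GL261 edgeR called none of the 9 members, with 1 (Ifnar1) at an unadjusted p under 0.05 and none called by DESeq2, where edgeR called 0% of 15189 genes, 1354 at an unadjusted p under 0.05 and DESeq2 47. In BMDM edgeR and DESeq2 called none of the 9, with none at an unadjusted p under 0.05, where edgeR called 0% of 14806 genes, 636 at an unadjusted p under 0.05 and DESeq2 4. In BV2 edgeR called none, with 1 (Irf8) at an unadjusted p under 0.05 and the same 1 by DESeq2, against 2.19% of genes. The interaction of Irf7 was 0.20 (SE 0.30) in GL261 and -0.25 (SE 0.51) in BMDM.

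**Figure D4:**
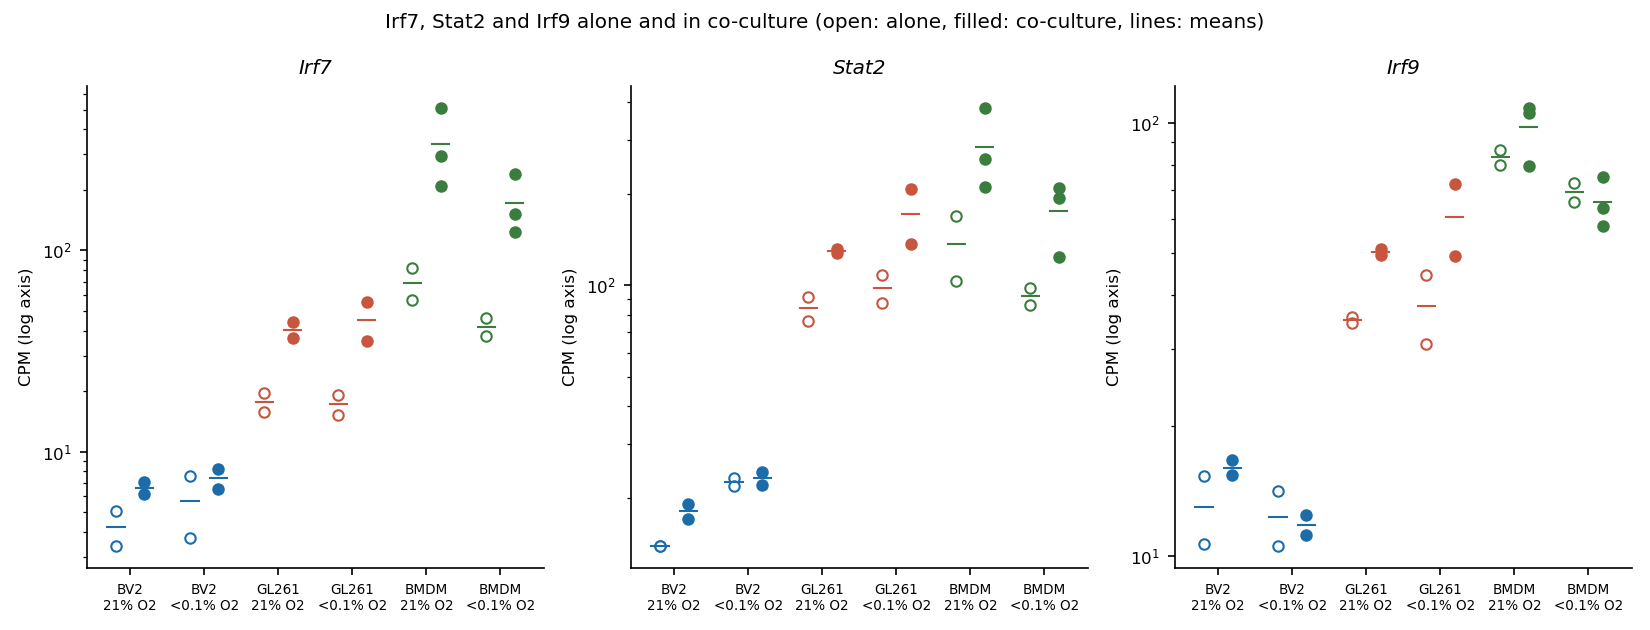
Irf7, Stat2 and Irf9 in CPM (log axis) in BV2, GL261 and BMDM at 21% and below 0.1% oxygen; points are libraries, open alone and filled in co-culture, and lines are group means. For Irf7 the filled GL261 and BMDM points lie above the open ones at both oxygen levels, whereas Irf9 in hypoxic BMDM shows overlapping groups.

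The myeloid factors Irf8 and Irf5 stayed low in co-cultured GL261, and neither was called against monoculture in the reported fit (adjusted p from 0.125 to 0.613). Without a filter on low counts edgeR called both as higher in normoxia, Irf8 by 3.17 (adjusted p = 0.0135) and Irf5 by 1.36 (adjusted p = 0.0246). Irf8 stood at 2 and 1 counts alone and 16 and 8 counts in co-culture in normoxia, an unscaled difference of 0.686 CPM. The carried share of BV2 RNA amounts there to 0.887 CPM of Irf8 at its level in BV2 alone and to 1.12 CPM at its level in co-cultured BV2. In hypoxia the difference was 0.597 CPM and the carried amounts 0.550 and 0.454 CPM. For Irf5 the difference was 1.23 CPM in normoxia, beside carried amounts of 0.638 and 0.782 CPM, and 1.26 CPM in hypoxia, beside 0.269 and 0.274 CPM. The part of carried RNA in these values was not tested.

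In the panobinostat experiment the first normoxic DMSO library of each cell type stood apart from the second in the interferon-responsive members. Irf7 was at 516 and 47.1 CPM in the 2 normoxic BMDM libraries, at 22.9 and 11.2 CPM in hypoxia and at 12.5 and 12.4 CPM with panobinostat. In BV2 it was at 42.9 and 8.98 CPM in normoxia, at 14.9 and 7.10 CPM in hypoxia and at 18.9 and 13.3 CPM with panobinostat. The Irf7 estimates for hypoxia, -4.04 (SE 1.10, adjusted p = 0.108) in BMDM and -1.23 (SE 0.60, adjusted p = 0.131) in BV2, rest on those normoxic groups. In BMDM the estimates with 1 library left out ran from -4.92 to -1.51, with no call. In BV2 the estimate without the first normoxic library was 0.32 and without the second -1.94 (adjusted p = 0.0137), and it was also called without the first hypoxic library (adjusted p = 0.0482). Without the second normoxic library, Irf9 (adjusted p = 0.0119) and Stat2 (adjusted p = 0.00855) also became calls in BV2. Of 31 interferon-induced target genes, 31 were higher in the first than in the second normoxic BV2 library and 27 in the first than in the second normoxic BMDM library, by a median of 1.28 and 0.93 on the log2 scale. The first library was also the higher for 25 to 31 of them in each BV2 and GL261 group of the co-culture experiment (median 0.21 to 0.81) and for 28 in hypoxic co-cultured BMDM (0.75), so these counts were not particular to the DMSO libraries. Beside these values, in BMDM the myeloid markers summed to 9726 and 7234 CPM in normoxia and 3316 and 5280 CPM in hypoxia, and fibroblast markers to 14199 and 12954 CPM and 1772 and 9123 CPM. Neutrophil markers summed to 14.2 CPM in the first normoxic BMDM library and 1.51 CPM in the second, with Ly6g at 0 in both, and the part of any of these in the result was not tested.

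The wider pathway was read from gene lists around these members. None of 20 interferon ligand genes passed the low-count filter in any cell type, 10 of them had no count in any of the 38 libraries, and the highest count of any ligand in a library was 6, for Ifnb1, the interferon beta gene. Of the 31 interferon-induced targets, hypoxia lowered 11 and raised 2 of 28 tested in BV2 alone (list median -0.60), so 13 of 28 were called against 61.9% of all genes. In BV2 from co-culture 8 were lower and 3 higher of 28, or 11 called against 67.3%. Both shares lay below that of all genes. With DMSO 18 of 27 were lower and none higher, against 37.5%, and the list median was -1.67. The targets summed there to 929 and 394 CPM in normoxia and to 302 and 289 CPM in hypoxia. The part of the first normoxic library, which stood apart above, was not tested. Ifi35, an interferon-induced protein gene, fell by 2.13 on the log2 scale in BV2 alone (adjusted p = 1.52e-07). In BMDM 10 of 31 fell alone, against 23.9% of genes called in either direction, and 20 in co-culture, against 34.8%, with none higher in either. Mx1, which encodes an antiviral GTPase, fell by 2.48 alone (SE 0.66, adjusted p = 0.0206) and by 2.04 in co-culture (SE 0.47, adjusted p = 0.00608). With DMSO edgeR called none of 31 in BMDM, against 0.483% of all genes, although 28 were at an unadjusted p under 0.05 and the list median was -2.12. In those BMDM the targets summed to 2720 and 1271 CPM in normoxia and to 489 and 433 CPM in hypoxia. The part of the first normoxic library was again not tested. In GL261 hypoxia lowered 5 and raised 2 of 31 alone, against 44.6%, and lowered 9 and raised 4 in co-culture, against 52.4%, shares below those of all genes. Cxcl10, a chemokine gene, was among those that rose, by 4.43 alone (SE 0.49, adjusted p = 5.11e-05) and 3.80 in co-culture.

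Interferon-induced targets called between co-culture and monoculture were mostly higher in co-culture. In GL261 5 of 31 rose in normoxia, against 0.514% of all genes called, and 7 in hypoxia, against 1.39%, with none lower and list medians of 1.19 and 1.07. In BMDM 9 of 31 rose in normoxia, against 1.64%, and 10 in hypoxia, against 7.11%, with none lower and medians of 1.12 and 0.90. Ifit3, an interferon-induced antiviral gene, rose in BMDM by 2.16 in normoxia (SE 0.42, adjusted p = 0.0298) and 2.23 in hypoxia (SE 0.45, adjusted p = 0.0181), and in GL261 by 1.45 and 1.74. In BV2, where none of the members was called in the reported fit, 4 of 28 targets rose in normoxia, near the 14.9% of all genes, and 9 rose and 2 fell in hypoxia, against 15.7%. The summed CPM of the targets was 283 and 237 in hypoxic BV2 alone and 311 and 260 in co-culture, against 1762 and 963 in the co-cultured GL261 whose RNA made up 2.20% of those BV2 libraries, and its part in the BV2 calls was not tested. Panobinostat raised 1 and lowered 2 of 27 targets in hypoxic BV2, near the 14.6% of all genes. Of 14 kinases and adaptors that activate IRFs, 6 rose and 4 fell in hypoxic BV2 alone, where 61.9% of all genes were called. Ticam1, the adaptor of Toll-like receptor signalling to IRF3, rose there by 2.82 (SE 0.13, adjusted p = 1.00e-10), while in BMDM alone 2 of 14 rose and none fell, against 23.9%. Of the 8 receptors and kinases, 4 rose and none fell in hypoxic BV2 alone, of the other STAT and IRF genes 4 of 10 rose and 3 fell, and of 15 inhibitors 4 rose and 7 fell. With lists of this size, none of these 4 shares in BV2 lay far from the 61.9% of all genes, and nothing is read from them about the lists. In hypoxic GL261 alone Irf2bp2, which encodes a binding protein of IRF2, rose by 1.98 (SE 0.16, adjusted p = 6.37e-06) and Irf2bp1 fell by 1.52 on the log2 scale.

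Across all 38 libraries, each gene was followed as its log2(CPM + 1) deviation from the mean of its cell type and experiment, and the 9608 genes that passed the filter everywhere with a mean of at least 5 CPM were ranked by Pearson correlation. These are descriptions over libraries that share cell types, oxygen levels and library preparation, with no test. Irf7 was closest to Usp18 (r = 0.92), Stat2 (0.91) and Oas1g (0.90), and Stat2 to Mx2 (0.92), Irf7 and Herc6 (0.91). Irf9 was closest to Parp14 (0.94), Oas2 (0.93) and Slfn8 (0.88). Irf1 was closest to Nfkbie (0.83), Icam1 and Relb (both 0.81), and Irf2 to Ifngr2 (0.88), a chain of the interferon gamma receptor. Irf3 was closest to Lsm7 (0.93) and Irf5 to Madd (0.88). Among the members themselves Irf1, Irf2 and Irf5 went together (0.72 for Irf1 with Irf2, 0.71 for Irf2 with Irf5, 0.70 for Irf1 with Irf5), while Irf7 and Irf9 stood at 0.69 and Irf1 and Irf3 at -0.32.

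**Figure D5:**
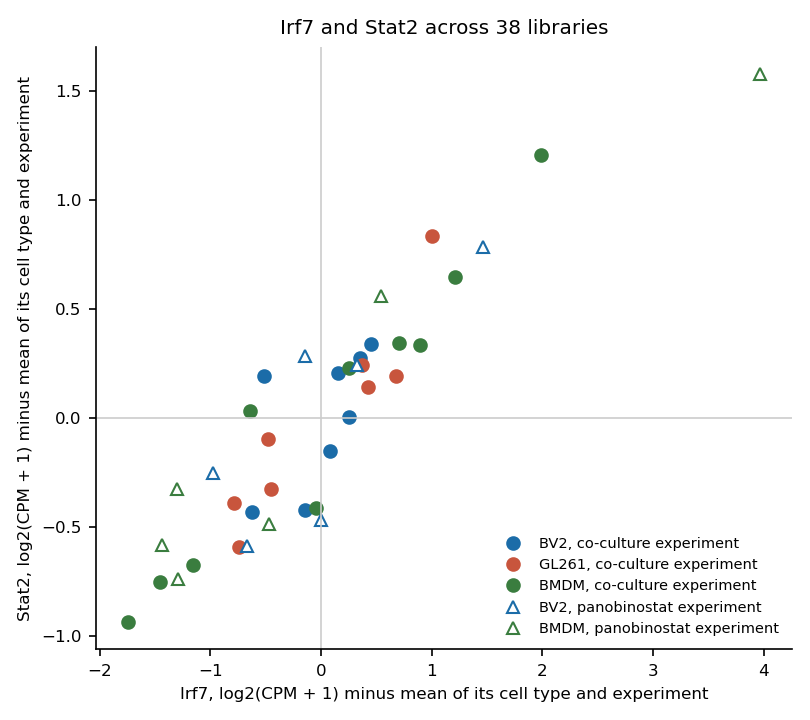
Deviation of Irf7 (x axis) and Stat2 (y axis) from the mean of their cell type and experiment, in log2(CPM + 1), for 38 libraries; circles are the co-culture experiment, triangles the panobinostat experiment, and colours the cell type. The points follow one diagonal (r = 0.91), and the point farthest to the upper right is the first normoxic DMSO library of BMDM, with 516 CPM of Irf7.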

How the data were processed

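The deposited values are read counts per Ensembl gene, made by the authors and given unnormalised in 3 tables. Per the submitters' processing notes, reads were processed with Trimmomatic 0.36, STAR 2.6, SAMtools and HTSeq 0.9.1 on mm10, with Picard 2.17.1 for the first table. The annotation and the strand setting are not given in the sources used here. Symbols and coordinates came from GENCODE vM21 (55141 of 55487 identifiers matched).

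From the counts, edgeR 4.0.16 (quasi-likelihood test, TMM scaling, filterByExpr) was fitted separately to BV2, GL261 and BMDM of the co-culture experiment and BV2 and BMDM of the panobinostat experiment, with all groups of a fit sharing the estimate of the spread. Comparisons between cell types used joint fits within a table. Adjusted p-values cover all genes tested. The edgeR code was tested on simulated data. No 2 replicates agreed within sampling noise (22 pairs, lowest chi-square per degree of freedom 6.70). Alternatives were DESeq2 1.42.0, its size factors, other filters, a replicate block, 2-group fits, removal of partner-high genes and leaving out each library. The replicate numbers of the titles were taken to pair normoxic and hypoxic BMDM from co-culture, since the deviations of all 3 same-numbered pairs correlated (0.53, 0.26 and 0.44). All 9 members are named, and of the wider lists at most 4 called genes per comparison, taken by size of change. The members and lists were chosen with earlier results of these data known. Carried RNA was estimated from genes high in the partner and nearly absent from the cell itself. The genes whose pattern was closest to Irf8 and Ifnar1 are not reported here.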

Additional observations from a re-analysis of the deposited data

Results flagged for a closer look

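The effect of hypoxia differed between BV2 and GL261 grown alone for 4 of the 9 genes, by the edgeR test of the difference itself. It was lower in BV2 for Irf1 (-1.13), Irf2 (-1.84) and Irf5 (-2.05) and higher in BV2 for Ifnar1 (1.21), each a difference of log2 fold changes. Both lines had 2 libraries at each oxygen level, and no group was large enough for a test of single outlying libraries.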

How the results depend on the processing

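Of 1213 values for single genes under alternatives other than leaving out a library, 1118 kept their direction and side of the threshold, 13 lost and 64 gained a call, and 18 changed sign with neither value called. Leaving out 1 library gave 1062 values, of which 935 were kept, 32 lost and 20 gained a call and 75 changed sign without a call. An arm left with 1 library was taken to vary like the other groups. No called value changed sign.

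The number of members called, given in brackets for the reported comparison, moved as follows. For hypoxia in BMDM alone (0) it was 1 with DESeq2, DESeq2 size factors or a mean of at least 5 CPM, 3 without a filter and 7 with only the 2 groups fitted. In BMDM from co-culture (2) it was 4 without a filter, 1 with 2 groups and 1 to 4 leaving out a library. In BV2 with DMSO (2) it was 4 without a filter, 1 with 2 groups and 2 to 4 leaving out a library, and in BMDM with DMSO (0) 2 with DESeq2 and 3 without a filter. For co-culture in normoxic BV2 (0) it was 1 without a filter, 2 at 5 CPM and 4 with 2 groups, and in hypoxic BV2 (0) 1 without a filter and 0 to 1 leaving out a library. In normoxic GL261 (1) it was 4 without a filter, and 0 at 5 CPM, without partner-high genes or leaving out any library. In hypoxic GL261 (1) it was 3 with DESeq2 or without a filter, 0 with 2 groups and 0 to 2 leaving out a library. In normoxic BMDM (1) it was 2 with DESeq2 or without a filter, 0 without partner-high genes and 0 to 1 leaving out a library, and in hypoxic BMDM (1) 3 with DESeq2 or without a filter and 0 to 2 leaving out a library. For panobinostat in BV2 (1) it was 2 with 2 groups and 0 to 1 leaving out a library, and for the interaction in BV2 (0) 1 with DESeq2, without a filter or at 5 CPM and 0 to 1 leaving out a library. The cause was not tested.

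A replicate block on the labels' replicate numbers moved the members called to 4 for hypoxia in BV2 with DMSO (Irf7 -1.04 and Irf9 -0.76 added), 2 in BMDM with DMSO (Irf7 -3.59, Stat2 -1.67), 2 for co-culture of normoxic GL261 (Stat2 0.64 added, adjusted p = 0.0385), 3 in hypoxic GL261 (Stat2 0.80, adjusted p = 0.00686, and Irf9 0.68, adjusted p = 0.0307, added) and 2 for panobinostat in BV2 (Irf1 0.68 added). It also added calls for Irf9 in hypoxic BV2 from co-culture (-0.44, adjusted p = 0.0189), Stat2 in hypoxic GL261 from co-culture (0.37, adjusted p = 0.0310) and the Stat2 difference between BV2 and GL261 (0.58, adjusted p = 0.0161). It ended no member's call and changed no other. Deviations of same-numbered libraries correlated by 0.36 (BV2) and 0.45 (BMDM) on average in the panobinostat experiment and by 0.055 to 0.24 in the other fits, and comparisons with only 2 numbers were taken to share only a number. The exception is hypoxia in BMDM from co-culture, with 3 pairs, where the block changed no member's call.

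Counts over all genes moved by over 1.5 times as follows. For hypoxia, 3542 in BMDM alone became 6289 with 2 groups and 1288 to 1567 leaving out a library, 4980 in BV2 with DMSO fell to 2920, and 72 in BMDM with DMSO became 2085 (DESeq2), 3259 (no filter), 2127 (block), 0 (2 groups) and 0 to 611. For co-culture, 2152 in normoxic BV2 became 1245 (5 CPM) and down to 451, and 2266 in hypoxic BV2 became 1461 (5 CPM) and 1367 (without partner-high genes). In GL261, 78 became 155 (DESeq2), 361 (no filter), 11 (5 CPM), 226 (block), 124 (2 groups), 13 (without partner-high genes) and 1 to 15, and 211 became 443, 737, 654 (block), 20 (2 groups) and 74 to 329. In BMDM, 243 became 606, 1062, 70, 432 (block), 9 (without partner-high genes) and down to 3, and 1053 became 1657, 2141, 313, 231 (2 groups), 168 and 4 to 1792. For panobinostat, 1941 in BV2 became 4025 (block) and down to 292, and 0 in BMDM became 2016 (DESeq2), 66 (DESeq2 size factors), 2867 (no filter), 53 (5 CPM) and 2044 (block). The interactions moved from 316 to 666, 981 and 59 to 682 in BV2, from 0 to 47 and 73 in GL261 and from 0 to 4, 128 and 1 in BMDM, and the difference of panobinostat effects from 4 to 219, 613, 166 (block) and 0 to 82.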
